A study of Danio rerio with 14 samples.

Results

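The genes described here encode the initiation and elongation factors of cytosolic translation, together with the release factor eRF1 and the cytosolic poly(A)-binding proteins. They were picked by symbol, as those starting with eif1 to eif6, eef1, eef2, etf1 or pabpc. This rule was set with earlier results of these data known. Each gene was represented by its transcript with the most counts. The rule found 78 genes among the 13832 gene symbols measured. Initiation factors bring the initiator tRNA, the small ribosomal subunit and the capped mRNA together, elongation factors deliver each aminoacyl-tRNA and move the ribosome along, and the release factor ends the chain at the stop codon. In the early zebrafish embryo, proteins are first made from mRNA that the mother stored in the egg, and transcripts of the zygotic genome take over during the blastula stages. Cycloheximide (CHX), which was used here on some of the embryos, blocks the step that eEF2 drives.

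RNA was sequenced from 14 pools of whole zebrafish embryos in 6 groups. The first was bmp7-/- mutants given 10 µg/ml CHX at 4 hours post fertilization (hpf) and then injected with human BMP2/7 heterodimer protein (3 libraries of 50 embryos). The second was bmp7-/- mutants given the same CHX at 4 hpf without the injection (3 libraries of 50). The times of the protocol put collection of the CHX embryos near 6 hpf, later than the 4 hpf of their stage label. The others were untreated bmp7-/- mutants at 8 hpf, untreated bmp7-/- mutants at 6 hpf, wild-type at 8 hpf and wild-type at 6 hpf (2 libraries of 40 each). BMP7 is a secreted ligand of the pathway that patterns ventral tissues, and CHX lets a response to injected BMP2/7 be read without new protein synthesis. The deposited table heads the wild-type columns with the symbol of a heterozygote (Aub-/+), while the sample labels call them wild-type. Whether the libraries of a group come from separate clutches is not stated, so p-values measure only the spread between these pools. In whole embryos, fewer cells of a type and less RNA per cell cannot be told apart.

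Library totals ranged from 5034277 counts in 1 of the untreated mutant libraries at 8 hpf to 23153881 in 1 of the wild-type libraries at 6 hpf. Levels below are CPM, which is counts scaled to a common library size with TMM factors, log2 fold changes (log2FC) come with their standard error (SE), and a gene was called changed at an adjusted p under 0.05 over all rows tested. The mutated gene, bmp7a, was low in the untreated mutants, at 0.871 and 0.470 CPM at 8 hpf and 3.34 and 1.88 CPM at 6 hpf, against 40.2 to 63.9 CPM in wild-type. The 6 libraries labelled bmp7-/- with CHX lay in between, at 14.8 to 29.1 CPM. The maternal markers h1m and buc were also high in the CHX libraries, with group means for h1m of 812 CPM with BMP2/7 and 846 CPM with CHX alone, against 137 CPM in untreated mutants at 6 hpf and 66.1 CPM in wild-type at 6 hpf. Over the 4 maternal markers the summed level was 693 to 1178 CPM in libraries with CHX alone and 158 to 218 CPM in untreated mutants at 6 hpf, although zar1 and zp2.1 were not higher with CHX. Summed levels of the 5 germ plasm genes were 628 to 704 CPM and 353 to 471 CPM, and those of the 4 enveloping layer genes 421 to 1050 CPM and 6226 to 6585 CPM, in the same order of groups. The 2 neural ectoderm genes, sox2 and sox3, summed to 98.7 to 170 CPM with CHX alone and 496 to 669 CPM in untreated mutants at 6 hpf, and sox2 averaged 1.94 and 207 CPM. The 2 endoderm genes summed to 29.5 to 83.7 CPM and 199 to 221 CPM, gata6 of the yolk syncytial layer was at 56.5 to 122.9 CPM and 234 to 329 CPM, and the 3 mesoderm genes summed to 1778 to 2104 CPM and 952 to 1402 CPM, in this order of groups. The krt5 transcript was at 0 counts in the CHX libraries, and muscle, blood and mature neuron markers summed to no more than 11.6 CPM in any library.

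The 78 genes took a smaller share of all counts in the CHX libraries. They held 2.29% to 2.47% of the counts with CHX and BMP2/7, and 2.28% to 2.64% with CHX alone. In untreated mutants they held 4.75% and 4.97% at 8 hpf, and at 6 hpf 4.30% and 5.15%. In wild-type embryos aged 8 hpf the shares came to 4.23% and 4.73%, with 4.18% and 4.66% in those aged 6 hpf. No CHX library reached any untreated one. The 95% Wilson interval was at most 0.019 percentage points to either side, which covers counting error only. A single gene, eef1a1l1, made up 27.8% to 32.0% of the counts of the group in the CHX libraries and 45.8% to 54.5% in untreated ones. This transcript encodes eEF1A, which carries aminoacyl-tRNA to the ribosome, and it had the highest mean count of the 78. At the other end, pabpc4 and eif2b1 had 3 counts each over all libraries.

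Of the 78 genes, 9 had too few counts to be tested in any comparison. These were eef1a1b, eef1a2, eif1axa, eif2b1, eif4a1b, eif4e1c, etf1b, eef1akmt1 and pabpc4, none of which exceeded 0.659 CPM in any library. Counts of near-identical copies can be split by the way reads were assigned, so the values of eef1a1l1 beside eef1a1l2, and of eef2a.1 beside eef2a.2, which are neighbours on their chromosomes, are less certain than those of genes without a close copy. Another gene overlaps 34 of the 77 genes that could be matched to a RefSeq annotation, among them eif4a2, eif4e1b, pabpc1l, eif4g2a and eef1db. The libraries were stranded, but whether counting used the strand is not stated, so reads of an overlapping gene may be included.

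CHX treatment was compared with no treatment within bmp7 mutants, as CHX without BMP2/7 against untreated embryos at 6 hpf. Most of the translation factors were lower in CHX-treated mutants, among them the elongation factors eef1a1l1 and eef2b, the GTPase activator eif5, both eif5a genes and 12 of the 16 genes of eIF3. Of the 69 genes tested, 44 fell and 6 rose, and 19 did not pass the test. Over all 10778 genes tested in this comparison, 58% were called, 29.7% higher and 28.3% lower, so the members' 63.8% lower stands against a background of 28.3%. The median log2FC of the members was -0.91, against 0.08 over all genes. No called member had overlapping groups, but the order and the call rest on the same counts, so this adds no support. All 3 CHX libraries lay below both untreated ones for 48 of the 69 members, against 34.4% of all genes. They lay above them for 14 of the 69, against 38% of all genes. By size, 7 members fell more than 4-fold, 21 by 2- to 4-fold and 16 by less than 2-fold. Treatment, exact stage at collection and experiment cannot be told apart in this comparison. Without TMM scaling, on library size alone, the all-gene median was 0.61 and that of the members -0.38. Of the members, 18 were then higher and 31 lower, while 44.3% of all genes were higher and 17.4% lower. The direction of the smaller changes thus depends on the scaling. On library size alone 13 of the 50 calls were lost, those of eif1axb, eif2a, eif2d, eif2s1a, eif2s1b, eif2s2, eif3ja, eif3m, eif4a1a, eif4a3, eif4e2rs1, eif4g2b and pabpc1b.

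**Figure D1:**
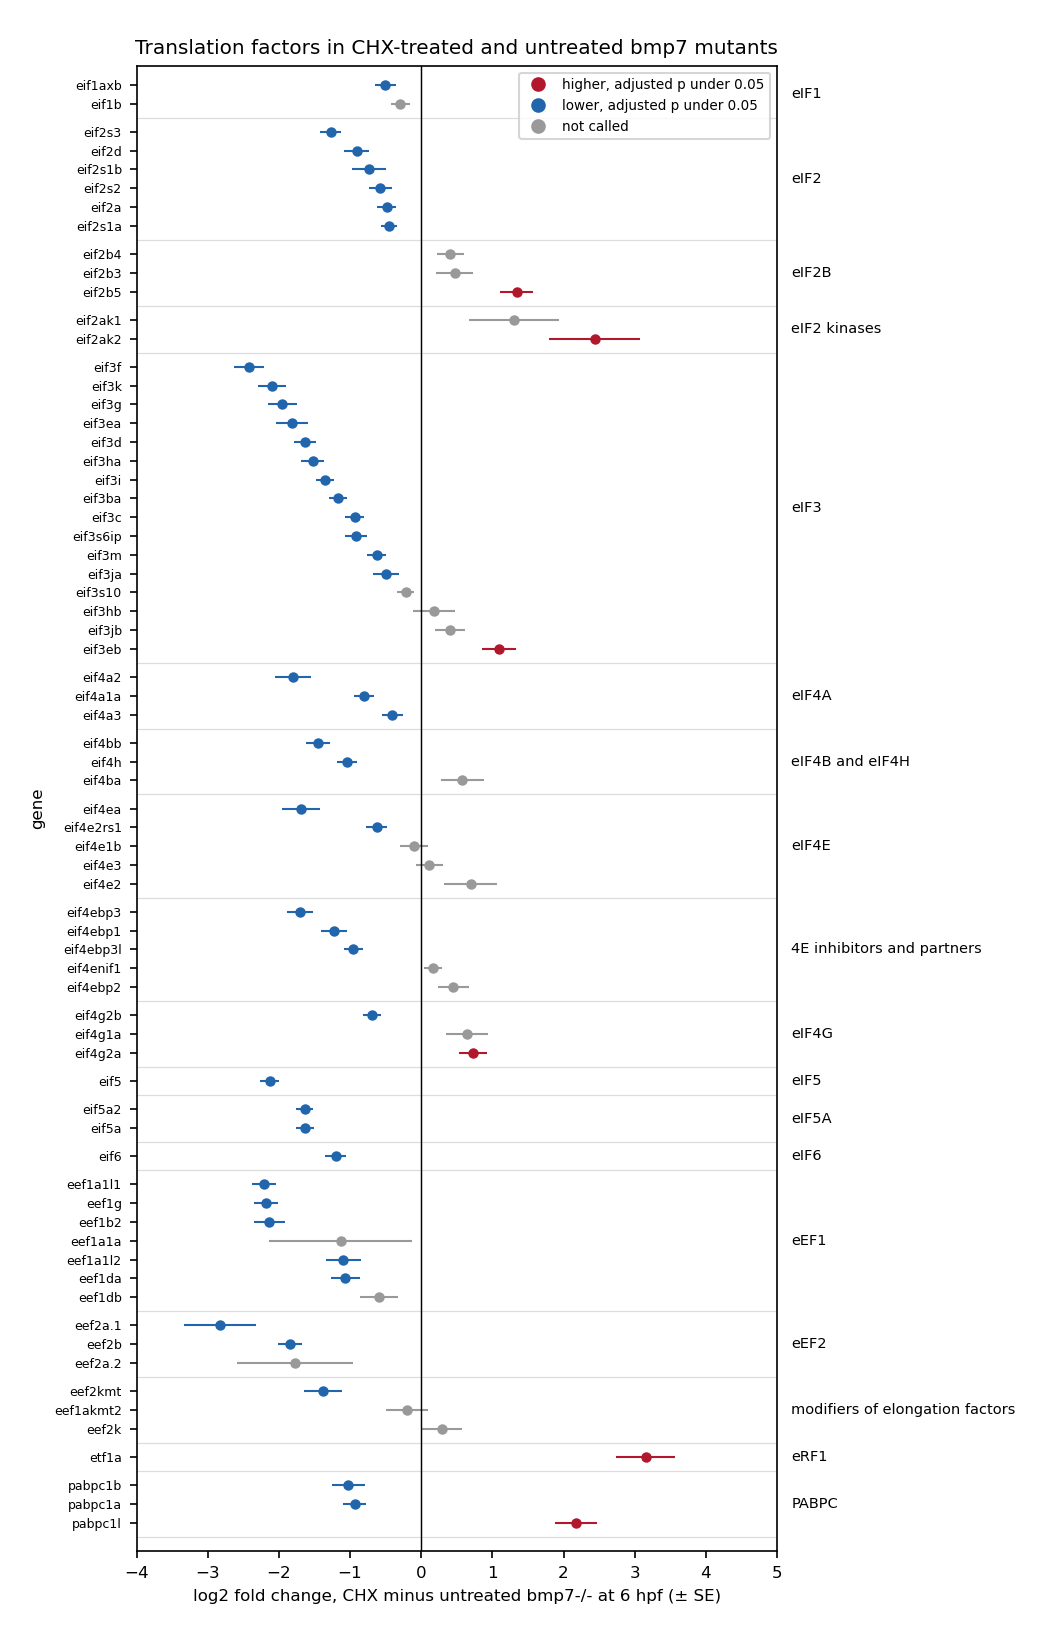
Log2 fold change (x axis, log2 units, bars ± SE) of each of the 69 members tested (y axis, grouped by role) in bmp7 mutants with CHX alone against untreated bmp7 mutants at 6 hpf. The 44 genes that fell lie left of 0 and make up most of the eIF3, eEF1, eEF2 and eIF5A groups, while the 6 that rose belong to 6 different roles.

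Among the elongation factors, 5 of the 7 eEF1 genes and 2 of the 3 eEF2 genes fell. For eef1a1l1 the level was 6439.5, 7581 and 5294 CPM with CHX, against 25800 and 33415 CPM in untreated mutants at 6 hpf. Every CHX library lay below every untreated one, with a log2FC of -2.21 (SE 0.17, edgeR adjusted p = 6.82e-07). The neighbouring eef1a1l2 was lower too, at 55.7, 71.6 and 36.4 CPM against 118.3 and 113.5 CPM (log2FC -1.09). Against untreated mutants at 8 hpf it was not called (log2FC -0.15, edgeR adjusted p = 0.608). The weakly detected eef1a1a had 0.142 to 0.555 CPM with CHX and 0.0902 and 1.13 CPM without, which overlapped. Of the subunits that recharge eEF1A with GTP, eef1g fell by 2.18 and eef1b2 by 2.13 on the log2 scale. For eef1g the levels were 197, 216 and 164 CPM with CHX, against 782 and 949 CPM without. The exchange subunit eef1da had a log2FC of -1.07 and was not called against untreated mutants at 8 hpf (log2FC -0.05, edgeR adjusted p = 0.838). It stood at 68.4, 54.9 and 41.2 CPM with CHX, which overlapped the 61.5 and 67.5 CPM of wild-type at 6 hpf. Its paralogue eef1db, with a log2FC of -0.60, did not pass (edgeR adjusted p = 0.0713).

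For eEF2, which moves the ribosome by a codon, the gene eef2b stood at 1166, 1199 and 783 CPM with CHX and at 3284 and 4199 CPM without (log2FC -1.84, SE 0.17, edgeR adjusted p = 2.41e-06). Its relative eef2a.1 had the largest fall of all members, at 28.6, 16.9 and 8.71 CPM against 149 and 106 CPM, with a log2FC of -2.83 and a wide SE of 0.51. The remaining gene, eef2a.2, was at 0.158 to 1.64 CPM with CHX and 3.25 and 3.10 CPM without, which was not called. Among the enzymes that modify elongation factors, eef2kmt, which methylates eEF2, fell (log2FC -1.38). The eEF2 kinase gene eef2k, whose product inhibits eEF2, stood at 3.63, 3.98 and 4.20 CPM with CHX and 2.98 and 3.38 CPM without, which was not called (log2FC 0.30). Both genes of eIF5A, the hypusine-bearing factor that helps the ribosome over difficult peptide bonds, fell by nearly the same amount, eif5a with a log2FC of -1.63 (SE 0.13) and eif5a2 of -1.64 (SE 0.12). The levels of eif5a were 453, 457 and 463 CPM with CHX and 1436 and 1387 CPM without.

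Among the initiation factors, eif5 had the smallest p of all members. It encodes the protein that triggers GTP hydrolysis on eIF2 once the start codon is found. It stood at 196, 199 and 231 CPM with CHX, against 841 and 973 CPM in untreated mutants at 6 hpf (log2FC -2.13, SE 0.13, edgeR adjusted p = 1.13e-07). The factor eIF2 brings the initiator tRNA, and its subunits are encoded by the eif2s genes. All 6 genes grouped under it by symbol, which include eif2a and eif2d, were called lower. Their log2FC ranged from -1.27 for the gamma subunit eif2s3 to -0.45 for the alpha subunit eif2s1a. That of eif2s1a turned to 0.08 on library size alone. Without the second untreated mutant library at 6 hpf the calls of eif2s1b, eif2a and eif2s2 were lost (edgeR adjusted p = 0.148, 0.0724 and 0.0657). The log2FC of eif2s1b, -0.73 here, lay between -2.19 against untreated mutants at 8 hpf and -0.20 on library size alone. That of eif2s1a was 0.06 against untreated mutants at 8 hpf (edgeR adjusted p = 0.648). Of the eIF2B genes, whose products recharge eIF2 with GTP, eif2b5 was called higher, and eif2b3 (log2FC 0.47) and eif2b4 (log2FC 0.41) were not called. The levels of eif2b5 were 31.3, 32.9 and 29.3 CPM with CHX and 12.4 and 12.1 CPM without (log2FC 1.34). The kinases that phosphorylate eIF2 alpha under stress were tested too. The gene eif2ak2, whose product senses double-stranded RNA, was at 3.28, 2.55 and 2.61 CPM with CHX and 0.180 and 0.846 CPM in untreated mutants (log2FC 2.44, SE 0.63). In wild-type at 6 hpf it had 2.70 and 1.24 CPM, which overlaps the CHX values. Its call was lost without the first untreated mutant library (edgeR adjusted p = 0.0600, log2FC range over all alternatives 1.71 to 3.90). The heme-regulated kinase gene eif2ak1 had 8.63 to 9.61 CPM with CHX and 3.07 and 4.23 CPM without, and was not called (edgeR adjusted p = 0.0940).

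The subunits of eIF3, the large scaffold that binds the small ribosomal subunit, gave 12 genes lower and 1 higher of 16, with a median log2FC of -1.05. The largest fall was in eif3f, at 33.9, 52.3 and 35.6 CPM with CHX and 189 and 243 CPM without (log2FC -2.42, SE 0.21, edgeR adjusted p = 1.18e-06). The peripheral subunit eif3k fell by 2.098 and the WD-repeat subunit eif3i by 1.35 on the log2 scale. The large subunit gene eif3s10 was at 606, 610 and 543 CPM against 704 and 649 CPM (log2FC -0.21, not called). Within this complex the genes eif3ea and eif3eb, which encode the same subunit, moved in opposite directions. The level of eif3ea was 53.7, 64.3 and 47.9 CPM with CHX and 166 and 222 CPM without. In contrast, that of eif3eb was 38.7, 47.4 and 43.3 CPM with CHX and 19.4 and 21.0 CPM without (log2FC 1.09, SE 0.24, edgeR adjusted p = 0.00174).

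The cap-binding factors were mixed. The cap-binding protein gene eif4ea fell (log2FC -1.70), with 15.7, 21.7 and 23.3 CPM with CHX and 47.7 and 82.6 CPM without. In contrast, eif4e1b, the form known from oocytes of vertebrates, stood at 57.7, 63.8 and 90.9 CPM with CHX and 78.6 and 73.1 CPM without, so its groups overlapped (log2FC -0.11). The related eif4e2rs1 fell (log2FC -0.63), and eif4e3 (log2FC 0.11) and eif4e2 (log2FC 0.70) were not called. The eIF4E-binding proteins compete with eIF4G for eIF4E and so hold initiation back. Of their genes, eif4ebp3, eif4ebp1 and eif4ebp3l fell, with log2FC of -1.70, -1.22 and -0.95. The call of eif4ebp3l was lost against untreated mutants at 8 hpf (log2FC -0.03, edgeR adjusted p = 0.879). The remaining gene, eif4ebp2, had 116.6, 82.7 and 119.1 CPM with CHX and 93.5 and 61.2 CPM without, which overlapped. All 3 helicase genes of the eIF4A group fell, with log2FC of -1.80 for eif4a2, -0.81 for eif4a1a and -0.41 for eif4a3, a core part of the exon junction complex, whose sign turned on library size alone (0.12) and whose call was lost in 8 of the alternatives. The scaffold relatives eif4g2a and eif4g2b, whose product lacks the eIF4E-binding site in mammals, moved apart. For eif4g2a the levels were 1229, 1607 and 1263 CPM with CHX, against 1008 and 635 CPM without (log2FC 0.73). Without the second untreated mutant library, eif4g2a was not called (edgeR adjusted p = 0.114). The levels of eif4g2b were 273, 303 and 293 CPM with CHX and 492 and 439 CPM without (log2FC -0.69).

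The release factor gene and a poly(A)-binding protein gene were among the 6 that rose. The release factor gene etf1a was at 7.05, 6.84 and 9.74 CPM with CHX, against 0.993 and 0.752 CPM in untreated mutants at 6 hpf (log2FC 3.15, SE 0.42, edgeR adjusted p = 3.52e-05). For pabpc1l, the relative known from oocytes and early embryos of mammals and frogs, the levels were 58.7, 43.3 and 39.3 CPM with CHX and 10.0 and 10.7 CPM without (log2FC 2.18, SE 0.29, edgeR adjusted p = 3.91e-05). In contrast, pabpc1a fell, at 784, 894 and 604 CPM against 1347 and 1546 CPM (log2FC -0.94), as did pabpc1b, at 10.3, 15.5 and 9.59 CPM against 27.5 and 20.3 CPM (log2FC -1.02). In the eIF3e, eIF4G2 and poly(A)-binding protein families, 1 gene was called higher and another lower. In eIF3h, eIF3j, eIF4B, eIF4E1, the eIF4E-binding proteins, eEF1D and eEF2, at least 1 was lower and another not called. The uncalled gene had a positive log2FC in eIF3h, eIF3j, eIF4B and the eIF4E-binding proteins, but a negative one in eIF4E1, eEF1D and eEF2. For eef2a.2 it was -1.77 (SE 0.81), beside -1.84 for eef2b. The difference between the genes of a family was not itself tested. The lower eIF4B gene, eif4bb, was at 54.2, 60.2 and 55.8 CPM with CHX and 146 and 162 CPM in untreated mutants at 6 hpf. In wild-type at 6 hpf eif4bb had 40.9 and 51.0 CPM, so its CHX level was not below wild-type.

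**Figure D2:**
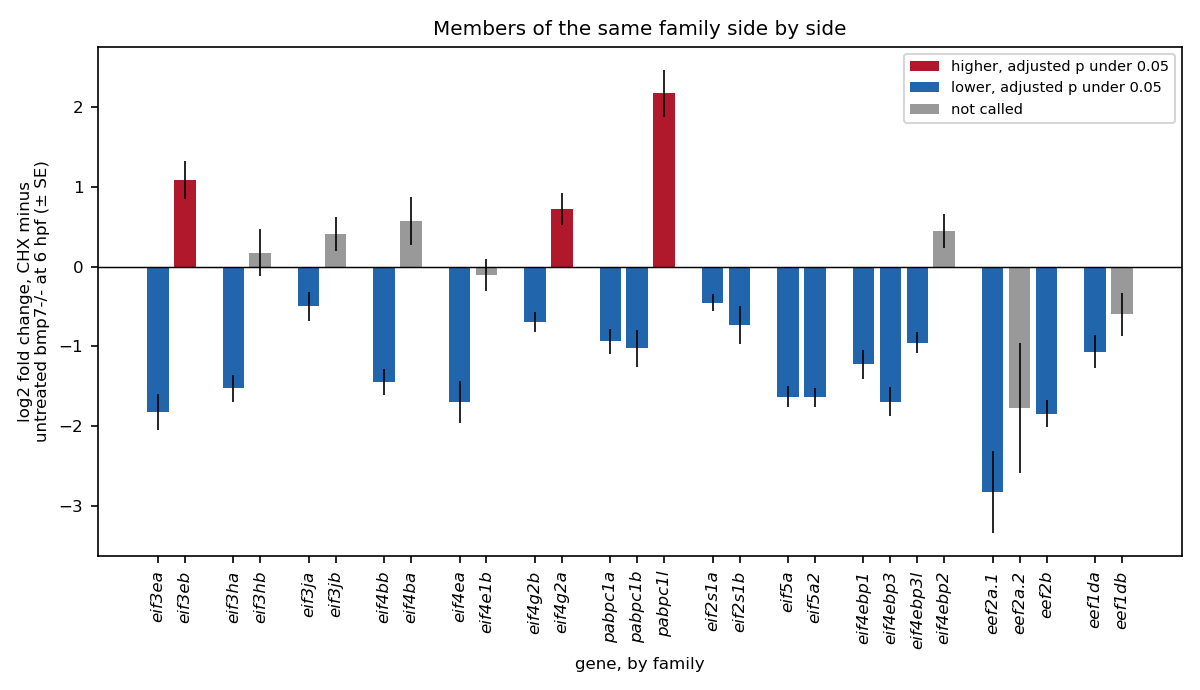
Log2 fold change in bmp7 mutants with CHX alone against untreated bmp7 mutants at 6 hpf (y axis, bars with SE) for genes of the same family placed side by side (x axis). In the eIF3e, eIF4G2 and poly(A)-binding protein families, eif3eb (1.09), eif4g2a (0.73) and pabpc1l (2.18) point up while their relatives eif3ea (-1.82), eif4g2b (-0.69) and pabpc1a (-0.94) point down.

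Over all groups, all 6 CHX libraries lay below all 8 untreated libraries for 35 of the 69 members (50.7%), which was so for 20.5% of all genes. They lay above for 5 members, etf1a, pabpc1l, eif3eb, eif2b5 and eif4g2a (7.25%), against 21.5% of all genes. With the untreated mutants at 8 hpf in place of 6 hpf, 43 members were lower and 11 higher, against 31.2% lower and 33.8% higher of all genes. With BMP2/7-injected CHX embryos as the treated group, 47 were lower and 7 higher, against 29.9% and 31.6% of all genes. Over the 14 libraries, log2 CPM of eef1a1l1 was most like that of eif4h (Pearson r 0.99), eef2b (0.99), eif3f (0.99), eif3i (0.98) and eef1g (0.98). These correlations are given as a description, since the points share the split between CHX and untreated libraries, and the lowest was that of etf1a (-0.96).

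**Figure D3:**
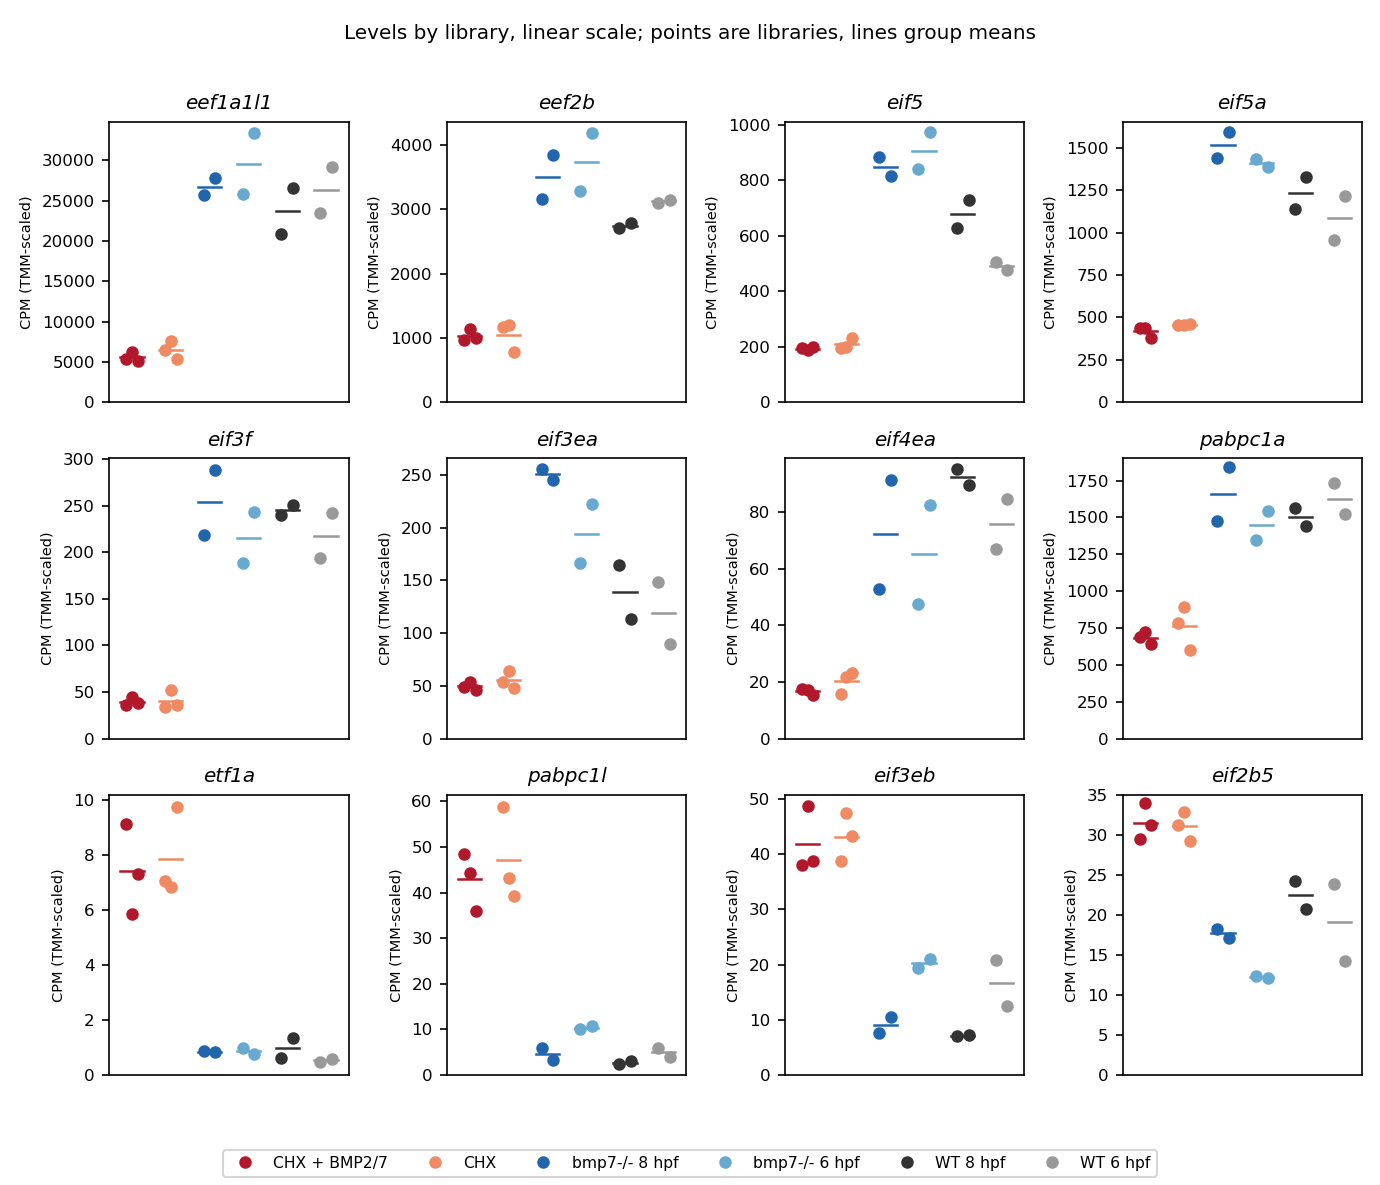
Levels (y axis, TMM-scaled CPM, linear from 0) of 12 members in each library, with groups from left to right as in the legend, points for libraries and lines for group means. For eef1a1l1 the CHX libraries of both kinds lie between 5077 and 7581 CPM and the untreated ones between 20912 and 33415 CPM, and for etf1a the CHX libraries lie at 5.86 CPM or more and the untreated ones at 1.34 CPM or less.

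Other parts of the translation machinery differed between the same libraries, in which 29.7% of all genes were higher with CHX and 28.3% lower. Of 74 cytosolic ribosomal protein genes tested, 72 were lower with CHX and none was higher, with a median log2FC of -2.60. Of 12 other translation factors, 6 were lower and 3 higher, the latter near the share of all genes. The lower ones included the mRNA-binding protein gene ybx1 (log2FC -1.88) and the ribosome recycling factor gene abce1 (log2FC -1.18). The higher ones were gle1, an activator of RNA helicases in mRNA export and termination (log2FC 2.31), paip1 (log2FC 1.18) and dhps (log2FC 1.15). The product of dhps begins the making of the hypusine of eIF5A. Among 15 cytosolic aminoacyl-tRNA synthetase genes 8 were lower and 1 higher, and among 5 mitochondrial translation factor genes 3 were lower and none was higher. The integrated stress response follows phosphorylation of eIF2 alpha. Of 17 of its genes, 7 were higher and 5 lower, the lower share being near that of all genes. The higher ones included atf3, ddit3 and trib3 and the lower ones atf4a (log2FC -1.33). The maternal, germ plasm, enveloping layer, neural ectoderm, endoderm, yolk syncytial layer and mesoderm markers given above differed between the same libraries, and their part in these results was not tested.

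BMP2/7 injection after CHX was compared with CHX alone, which asks whether the translation factors respond to BMP signaling without new protein. The CHX-alone embryos had no injection, and the injected solution also held KCl, albumin and a dextran dye. The protein thus cannot be told apart from the injection and the rest of its solution. None of the 68 members tested was called by edgeR in either direction, with 1 at an unadjusted p under 0.05, and DESeq2 called none. Among all 9446 genes tested, 2.25% were called, 1.91% higher and 0.349% lower. The log2FC of the members ranged from -0.52 for eef2k to 0.47 for eif2ak2. The median was -0.10, against -0.002 over all genes, and 54 of 68 lay below 0. By their median, about as many of all genes lay below 0 as above it, though the exact share was not counted. The members share the same libraries and scaling. The smallest p was that of eif2s2, the beta subunit of eIF2. It stood at 201, 190 and 197 CPM with BMP2/7 and at 232, 247 and 254 CPM with CHX alone (log2FC -0.30, SE 0.09, edgeR adjusted p = 0.238). All 3 injected libraries lay below the 3 uninjected ones for this gene, as for 7 members in all, and above them for 1, eif3ba. Such an order was seen for 8.88% (below) and 7.06% (above) of all genes. For eef1a1l1 the levels were 5382, 6271 and 5077 CPM with BMP2/7 and 6439.5, 7581 and 5294 CPM with CHX alone, which overlapped (log2FC -0.19, SE 0.13, edgeR adjusted p = 0.783). In each of the 3 pairs of the same number the injected library was the lower one, and with the replicate block the gene was not called (log2FC -0.18, edgeR adjusted p = 0.193).

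The families described above were compared between both CHX groups as well. The log2FC was -0.06 (SE 0.24) for etf1a and -0.12 (SE 0.18) for pabpc1l, and -0.13 (SE 0.14) for pabpc1a and -0.19 (SE 0.22) for pabpc1b. In the eIF4E family it lay between -0.26 (eif4ea) and 0.03 (eif4e3), with -0.15 for eif4e2, -0.14 for eif4e2rs1 and -0.09 for eif4e1b. The eIF4E-binding protein genes lay between -0.10 (eif4ebp3 and eif4ebp3l) and 0.13 (eif4ebp2), with eif4ebp1 at -0.08. For the eIF5A genes the values were -0.12 (eif5a) and -0.15 (eif5a2), for eef1a1l2 -0.10, and for the eIF2 kinases -0.18 (eif2ak1) and 0.47 (eif2ak2). The eEF2 genes were at 0.0039 (eef2b, SE 0.16), 0.04 (eef2a.1, SE 0.52) and 0.20 (eef2a.2, SE 0.71). For eef2a.1 and eef2a.2 the data leave room for a large difference. The values of these families come from the fit without the replicate block. Of the related genes, trib3 of the stress response list was higher in the BMP2/7-injected embryos. It stood at 1222, 1123 and 1001 CPM against 501, 515 and 595 CPM (log2FC 1.07, edgeR adjusted p = 0.00273). The ribosomal protein gene rps8b was lower.

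Mutant and wild-type embryos were compared at each stage, to see which factors differ between the genotypes. The paper states that all mutant embryos were bred from homozygous adults, so the genotypes had different parents. Loss of Bmp7 and differences between parents or their lines cannot be told apart. The mutant libraries at 6 hpf are the same ones that CHX was compared with. At 6 hpf 5 of the 69 members were higher in mutants and 2 lower, or 10.1%, and 15.4% of all 10031 genes tested were called (6.34% higher and 9.1% lower). Both mutant libraries lay above both wild-type ones for 25 of the 69 members and below them for 17, against 30.2% and 31.4% of all genes. At 8 hpf only eif4bb was called by edgeR, and 3.15% of all genes were (1.13% higher and 2.02% lower). The libraries were then ordered in this way for 27 of the 69 members above and 13 below, against 27% and 30.4% of all genes. The clearest member at both stages was eif4bb, which encodes eIF4B, the RNA-binding helper of the eIF4A helicase. At 8 hpf it stood at 138 and 129 CPM in mutants and 47.9 and 66.0 CPM in wild-type (log2FC 1.24, SE 0.22, edgeR adjusted p = 0.0210). At 6 hpf it stood at 146 and 162 CPM in mutants and 40.9 and 51.0 CPM in wild-type (log2FC 1.72, SE 0.22, edgeR adjusted p = 0.00357). The call at 8 hpf was lost without the first wild-type library at 8 hpf (edgeR adjusted p = 0.114) or without either mutant library (0.146 and 0.136), with log2FC between 1.02 and 1.48 in all alternatives. Its paralogue eif4ba was at 17.6 and 18.6 CPM in mutants at 8 hpf and 10.9 and 15.5 CPM in wild-type, and was not called at either stage.

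The opposite held for eif2s1b, 1 of 2 genes for the eIF2 subunit that stress kinases phosphorylate. It was at 20.8 and 25.8 CPM in mutants at 6 hpf and 60.2 and 93.1 CPM in wild-type (log2FC -1.74, SE 0.26, edgeR adjusted p = 0.00654). The other copy, eif2s1a, was at 598 and 603 CPM in mutants and 575 and 579.9 CPM in wild-type. The exchange factor genes eef1da and eef1db were called in opposite directions. In mutants at 6 hpf eef1da stood at 115.4 and 113.5 CPM, against 61.5 and 67.5 CPM in wild-type (log2FC 0.80), while eef1db stood at 17.3 and 22.8 CPM in mutants, against 36.9 and 65.7 CPM in wild-type (log2FC -1.37). Higher in mutants were also eif2d, a factor that can deliver initiator tRNA outside the eIF2 pathway, at 42.9 and 56.3 CPM against 21.57 and 25 CPM (log2FC 1.07), and eif5, at 841 and 973 CPM against 507 and 478 CPM (log2FC 0.86). The last was the inhibitor gene eif4ebp3, at 76.3 and 79.9 CPM in mutants and 43.9 and 48.5 CPM in wild-type (log2FC 0.73, edgeR adjusted p = 0.0466). All 7 had the same sign at 8 hpf, and no member passed the test of a change in that difference between the stages.

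With single libraries left out, eif4bb and eif2s1b were called at 6 hpf in every fit. The calls of eif5, eif2d, eef1da, eef1db and eif4ebp3 were each lost at least once, with highest edgeR adjusted p of 0.0821, 0.127, 0.113, 0.122 and 0.181. Such fits leave a single library in a group. Where fewer members were called in them, the share of all genes called was lower too.

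Apart from eif4ebp3, the genes of the families below did not pass the test at either stage. Of the eIF4E-binding protein genes, eif4ebp1 had a log2FC of 0.83 at 8 hpf (edgeR adjusted p = 0.0776) and 0.67 at 6 hpf (0.0713), and its mutant libraries lay above wild-type at both stages, while eif4ebp2 had 0.14 and 0.47 and eif4ebp3l -0.04 and 0.27. At 8 hpf and 6 hpf in turn, log2FC was 0.16 and 0.63 for eif4e1b, 0.18 and 0.65 for eif4e3, -0.85 and -0.39 for eif4e2, 0.04 and 0.02 for eif4e2rs1 and -0.34 and -0.24 for eif4ea. The kinase gene eif2ak2 had -1.50 and -1.95, with all mutant libraries below wild-type at both stages but at most 2.70 CPM in any of them, and eif2ak1 had 0.46 and -0.24. For the elongation factors the values were 0.18 and 0.15 for eef1a1l1, -0.05 and 0.54 for eef1a1l2, -1.55 and 2.38 for eef1a1a, 0.36 and 0.23 for eef2b, 0.09 and 0.26 for eef2a.1 and 0.27 and 0.55 for eef2a.2. The eIF5A genes had 0.30 and 0.35 (eif5a) and 0.28 and 0.32 (eif5a2). The poly(A)-binding protein genes had 0.15 and -0.20 (pabpc1a), 0.04 and -0.68 (pabpc1b) and 0.71 and 1.04 (pabpc1l), and etf1a had -0.21 and 0.66. Ribosomal protein genes were called in few cases, with 2 higher and 1 lower of 75 at 6 hpf and 1 lower at 8 hpf. Their median log2FC was 0.435 at 6 hpf and 0.476 at 8 hpf, against -0.0367 and -0.0239 over all genes.

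**Figure D4:**
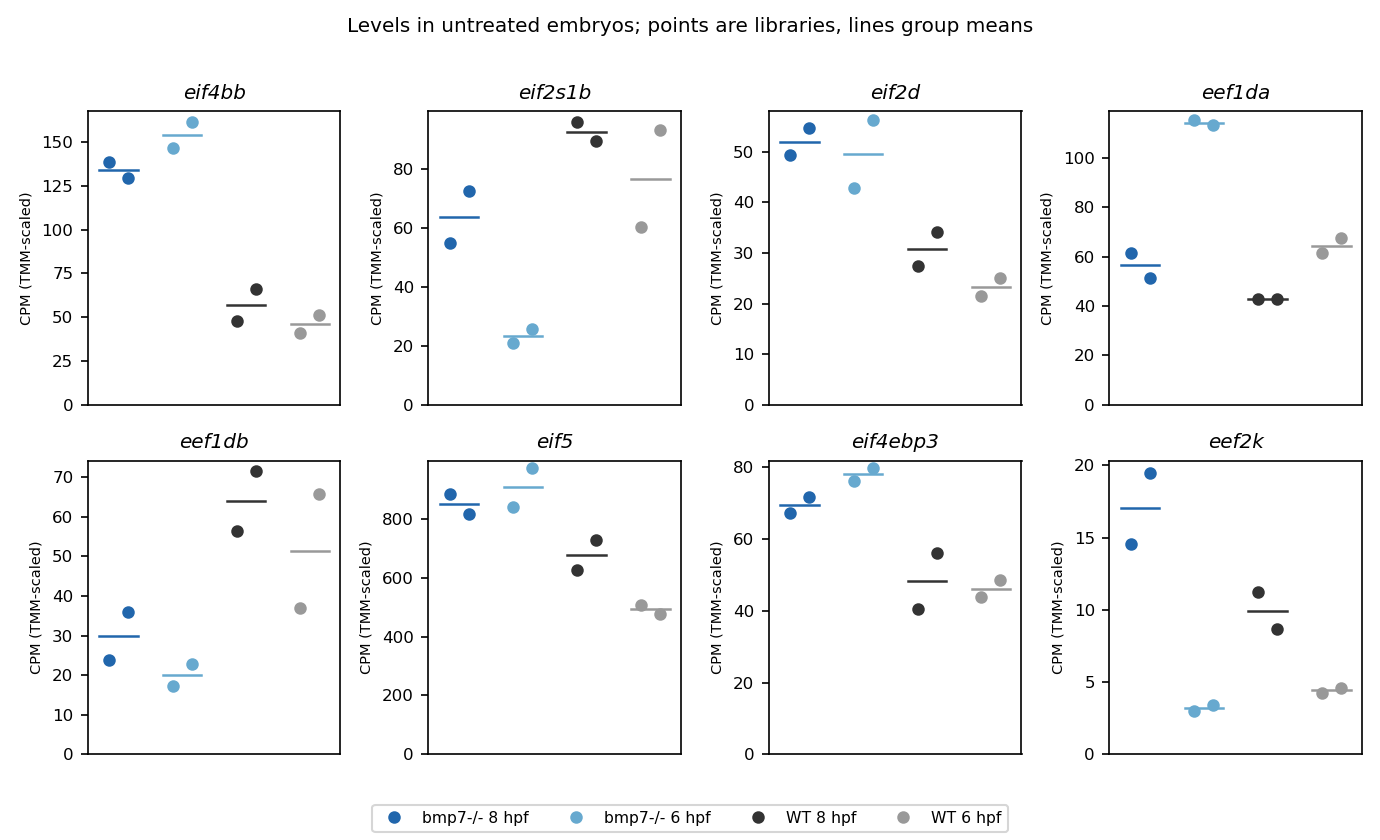
Levels (y axis, TMM-scaled CPM, linear from 0) of 8 members in each untreated library, with groups from left to right as in the legend, points for libraries and lines for group means. For eif4bb the mutant libraries lie between 129 and 162 CPM and the wild-type ones between 40.9 and 66.0 CPM, and eef2k is higher at 8 hpf than at 6 hpf in both genotypes.

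Development from 6 to 8 hpf was followed within each genotype. In wild-type none of the 69 members was called by edgeR (1.75% of all genes were, 1.07% higher and 0.688% lower). DESeq2 called 2 members (2.9%), against 5.74% of all genes. At an unadjusted p under 0.05 there were 10 members, and the share of all genes at that level was not counted. Both libraries at 8 hpf lay above both at 6 hpf for 20 of the 69 members and below them for 15, against 23.4% and 23.3% of all genes. In mutants 3 rose and 4 fell, or 10.1%, against 10.9% of all genes (5.31% higher and 5.57% lower). In mutants the 8 hpf libraries lay above for 22 of the 69 members and below for 20, against 29.4% and 31.8% of all genes. The sign of the change was the same in both genotypes for 54 of the 69 members (78.3%), against 73.3% of all genes.

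Of the 3 members called higher at 8 hpf in mutants, eef2k, the kinase gene for eEF2, had the largest log2FC. In mutants it was at 14.6 and 19.5 CPM at 8 hpf and 2.98 and 3.38 CPM at 6 hpf (log2FC 2.47, SE 0.33, edgeR adjusted p = 0.00512). In wild-type it was at 11.2 and 8.64 CPM at 8 hpf and 4.25 and 4.61 CPM at 6 hpf, which had the smallest p of the members in that genotype but was not called (log2FC 1.17, SE 0.31, edgeR adjusted p = 0.0983). In mutants eif2s1b rose to 54.9 and 72.4 CPM at 8 hpf, against 20.8 and 25.8 CPM at 6 hpf (log2FC 1.496), and eif2b3, a catalytic-core subunit gene of eIF2B, to 12.4 and 16.3 CPM, against 5.32 and 5.55 CPM (log2FC 1.45).

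The genes that fell in mutants included eif4e1b, at 31.1 and 35.4 CPM at 8 hpf and 78.6 and 73.1 CPM at 6 hpf (log2FC -1.14, SE 0.21, edgeR adjusted p = 0.0115). In wild-type it was at 30.3 and 29.6 CPM at 8 hpf and 52.8 and 43.6 CPM at 6 hpf (log2FC -0.67, edgeR adjusted p = 0.132). The inhibitor gene eif4ebp3l fell to 423 and 384 CPM in mutants at 8 hpf, against 805 and 737 CPM at 6 hpf (log2FC -0.89). Also lower at 8 hpf in mutants were eef1da (log2FC -0.98) and eef1a1l2 (log2FC -0.90). Each of the 7 lost its call when at least 1 mutant library was left out, which leaves a single library in that group. The share of all genes called was also lower in each fit that left out a mutant library.

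**Figure D5:**
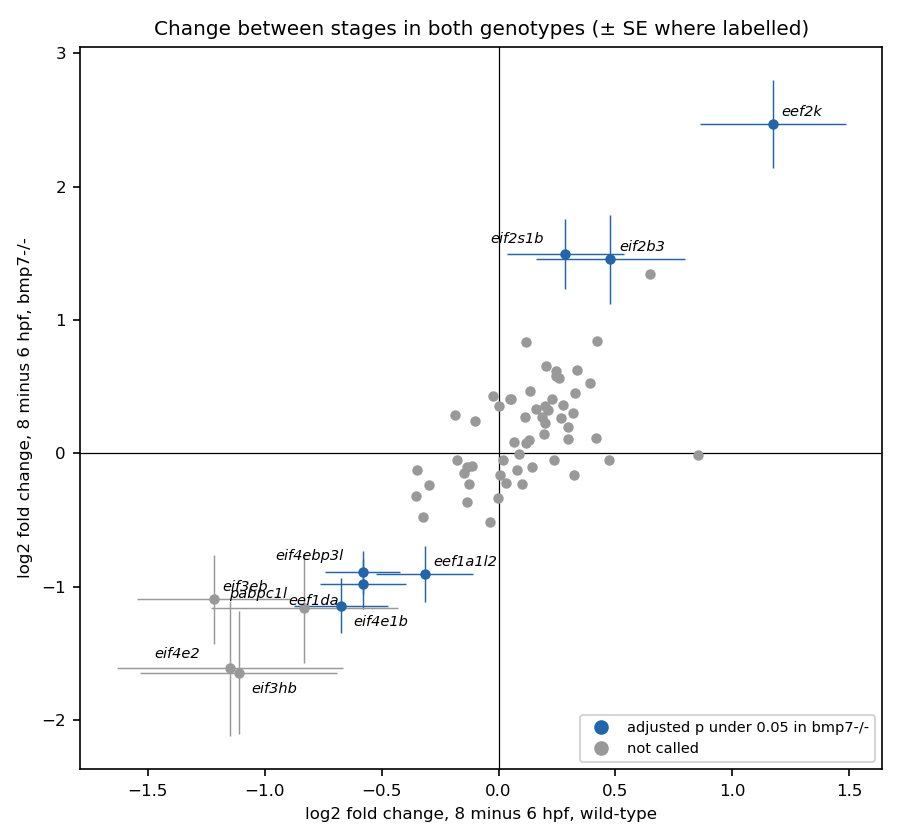
Log2 fold change at 8 hpf against 6 hpf in bmp7 mutants (y axis) and in wild-type (x axis) for 68 members, with SE bars on the labelled ones, blue where the change was called in mutants; eef1a1a, with a log2FC of -0.46 in mutants and 3.48 in wild-type at low counts, is left out. The 7 called genes lie in the lower left and upper right, with eef2k highest (2.47 in mutants, 1.17 in wild-type).

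The named families were also followed between the stages, and of their genes only those described above as called passed the edgeR test. In mutants and wild-type in turn, log2FC was -1.61 and -1.15 for eif4e2, -0.51 and -0.04 for eif4e3, -0.09 and -0.11 for eif4e2rs1 and 0.20 and 0.30 for eif4ea. Among the inhibitor genes eif4ebp3l was at -0.89 and -0.58, eif4ebp1 at 0.27 and 0.11, eif4ebp2 at -0.33 and -0.0032, and eif4ebp3 at -0.12 and 0.08. Only eif4ebp3l was called, in mutants.

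For the elongation factors the values were -0.10 in mutants and -0.13 in wild-type for eef1a1l1, -0.90 and -0.32 for eef1a1l2, -0.05 and -0.18 for eef2b, -0.16 and 0.01 for eef2a.1 and -0.05 and 0.24 for eef2a.2. The eIF5A genes had 0.15 and 0.20 (eif5a) and 0.10 and 0.13 (eif5a2), and the eIF2 kinase genes 1.35 and 0.65 (eif2ak1) and 0.66 and 0.21 (eif2ak2). The poly(A)-binding protein genes had 0.24 and -0.10 (pabpc1a), 0.84 and 0.12 (pabpc1b) and -1.16 and -0.83 (pabpc1l), and etf1a had -0.01 and 0.85. For pabpc1l the levels were 5.88 and 3.41 CPM in mutants at 8 hpf and 10.0 and 10.7 CPM at 6 hpf, which did not overlap but missed the threshold (edgeR adjusted p = 0.0986).

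Whether the stage change differed between the genotypes was tested as an interaction. None of the 69 members was called by edgeR, as was none of the 10031 genes tested (0% called), and DESeq2 called none of the members. At an unadjusted p under 0.05 there were 2 members, eif2s1b (difference of log2FC 1.21, SE 0.36, edgeR adjusted p = 0.728) and eef2k (1.30, SE 0.45, edgeR adjusted p = 0.832). The share of all genes at that level was not counted. In the named families the difference ranged from -3.94 (eef1a1a, SE 1.78) to 0.72 (pabpc1b, SE 0.34). It was 0.03 for eef1a1l1, -0.59 for eef1a1l2, 0.13 for eef2b, -0.17 for eef2a.1, -0.28 for eef2a.2, -0.05 for eif5a and -0.03 for eif5a2. The eIF4E genes lay between -0.48 (eif4e3) and 0.02 (eif4e2rs1), with eif4e1b at -0.47, eif4e2 at -0.46 and eif4ea at -0.10. The inhibitor genes lay between -0.33 (eif4ebp2) and 0.16 (eif4ebp1), with eif4ebp3l at -0.31 and eif4ebp3 at -0.20, and the others were at 0.70 (eif2ak1), 0.45 (eif2ak2), 0.34 (pabpc1a), -0.33 (pabpc1l) and -0.87 (etf1a).

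The related lists were also counted between the untreated groups. Of all genes, 15.4% were called between mutants and wild-type at 6 hpf, 3.15% at 8 hpf, and 10.9% between the stages in mutants. At 6 hpf mutants had 1 higher of 12 other translation factor genes, denr, and 1 higher and 1 lower of 15 aminoacyl-tRNA synthetase genes. The lower one, aars, which charges alanine tRNA, had a log2FC of -3.01 (SE 0.45, edgeR adjusted p = 0.00638) at 6 hpf, and of -2.97 (SE 0.48, edgeR adjusted p = 0.0161) at 8 hpf. Of 16 stress response genes, 2 were higher and 1 lower in mutants at 6 hpf, and in mutants 1 was higher and 3 lower at 8 hpf against 6 hpf. Of these, asns, which makes asparagine, rose (log2FC 1.496), and psat1 of serine synthesis fell (log2FC -1.19).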

How the data were processed

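Raw counts for 14 whole-embryo libraries were analysed. The authors extracted RNA with Trizol, prepared stranded polyA libraries and aligned reads with RUM to zebrafish GRCz11. For the counter, its strand setting and its treatment of multiply mapped reads, the sources used here give nothing. The deposited table holds counts per RefSeq transcript, 14532 rows for 13832 gene symbols, and 14 symbols turned into dates were replaced by transcript names. Its columns of normalized log2 values and of the authors' own comparisons (log2 fold changes, p-values and false discovery rates) were not used.

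Counts were tested with edgeR 4.0.16 in R 4.3.3 (filterByExpr with a minimum count of 10, TMM factors, quasi-likelihood F-test, Benjamini-Hochberg adjustment over all rows tested, threshold 0.05). CHX against untreated was fitted on all 14 libraries (11335 rows), BMP2/7 on the 6 CHX libraries (9937 rows), and genotype and stage on the 8 untreated libraries (10555 rows). SE is the log2FC divided by the root of F. Counts over all genes use 1 row per gene. Wilson intervals are at 95% and cover counting error only. Members were matched by accession to a RefSeq table of GRCz12tu, which was used only for names, neighbours and overlaps. In CHX libraries, deviations from the group means correlated between libraries of the same number (r = 0.307, 0.592 and 0.550). The numbers may thus mark pairs, which the sources do not state. The main BMP2/7 fit did not use such a pairing, so its SEs include any spread between pairs. With a replicate block, the count of members called for BMP2/7 against CHX alone stayed at 0. The share of all genes called there rose from 2.25% to 7.94% (4.47% higher and 3.47% lower).

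Genes were named by rule: in each comparison up to 8 called members per direction with the smallest adjusted p, the eef1a, eef2, eif4e, eif4ebp, eif5a, eif2ak, pabpc and etf1 families throughout, the members with the highest and lowest counts, and the smallest p where none was called. Other named genes, among them family pairs, were chosen after their values were seen. Members and lists were chosen with earlier results of these data known. Alternatives were other normalizations, no filter, DESeq2 1.42.0, other ways to treat several rows of a gene, a replicate block, other sets of libraries and leaving out each library. The tests were tried on simulated data first.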

Additional observations from a re-analysis of the deposited data

How the results depend on the processing

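In CHX against untreated mutants, the count of 50 called members lay between 44 and 57 under every alternative, and between 44 and 52 with single libraries left out. Of the 50 members called, 32 kept the call throughout and 18 lost it at least once. The share of all genes called moved with the setting too. In fits with at least 2 libraries in each group, it lay between 44.2% (no filter) and 68.4% (mean of 6 and 8 hpf). In the main fit it was 58%. The split of members was 18 higher and 31 lower on library size alone (36.7% of calls higher, against 12% with TMM). Of all genes, 44.3% were higher and 17.4% lower on library size alone, against 29.7% and 28.3% with TMM. Among members called in at least 1 of the fits compared, the log2FC changed sign on library size alone for eif4a3 (0.12), eif3s10 (0.32), eif2s1a (0.0768), eif2a (0.0433), eif1axb (0.0212) and eif3ja (0.0388), and among members called in neither fit for eif1b (0.23), eef1akmt2 (0.32) and eif4e1b (0.43). With untreated mutants at 8 hpf it changed sign for eef2k (-2.13), eif2s1a (0.0608), eif2b3 (-0.95) and eif4e1b (1.07), and uncalled for eif2ak1 (-0.01) and eif4ba (-0.0018), and with the mean of 6 and 8 hpf for eef2k (-0.92) and eif4e1b (0.48), and uncalled for eif2b3 (-0.24). Uncalled, eef2k changed sign with BMP2/7-injected CHX embryos as the treated group (-0.24), and eef1a1a, eef1akmt2, eif4e1b and eif4e3 with single libraries left out.

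Mutant against wild-type at 6 hpf (7 members) gave 12 by DESeq2 (20.0% of all genes), 15 with the replicate block (24.0% of all genes), 14 with all 14 libraries in the fit (22.4%) and 2 to 8 with single libraries left out (2.5% to 15%). At 8 hpf (1 member) these were 5 (9.13%), 6 (9.39%), 5 (8.82%) and 0 to 2 (0.421% to 4.47%). In wild-type 8 hpf against 6 hpf (0 members) DESeq2 called 2 (5.74% of all genes), the replicate block 1 (5.23%) and the fit with all 14 libraries 3 (5.07%). In mutants 8 hpf against 6 hpf (7 members) the replicate block called 12 (16.5% of all genes), the fit with all 14 libraries 14 (16.9%), and fits without single libraries 0 to 8 (0.517% to 11.9%). Whether a shared number marks a pair in these groups is not stated. The correlation between same-numbered libraries was 0.153 at 6 hpf and -0.0102 at 8 hpf. It was 0.414 between the wild-type stages and 0.275 between the mutant stages. With 2 libraries a group, these correlations cannot decide whether the numbers pair the libraries. Between CHX and untreated mutants the correlations were 0.00516 and -0.0988, and the block left the count of members at 50 (58.5% of all genes). The count stayed at 0 for BMP2/7 after CHX and for the interaction under every alternative. The causes were not tested. With 2 libraries a group, depth and replicate number limit what the genotype and stage comparisons can show.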
